A study of Mus musculus with 102 samples.

Results

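The Hox clusters A, B, C and D were described at single CpG resolution in mouse embryonic stem cells (mESCs) with and without TET enzymes, and after deletion of the de novo DNA methyltransferases. Members were all measured CpGs inside 4 fixed windows of the mm9 genome: HoxA on chromosome 6 from 52100000 to 52215000, HoxB on chromosome 11 from 96045000 to 96235000, HoxC on chromosome 15 from 102745000 to 102870000, and HoxD on chromosome 2 from 74500000 to 74610000. The windows held 7025 of the 2177608 CpGs of the capture data (0.323%), with 1720 in HoxA, 2335 in HoxB, 1419 in HoxC and 1551 in HoxD. They covered 55.5% of the 12647 CpGs that the genome sequence has there, and all 39 Hox genes.

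All cells were C57BL6/J mESCs, cultured on feeder cells before Cre transduction. After transduction the cells were moved to plates without feeders. The groups were WT cells with intact TET genes and intact Dnmt3a and Dnmt3b, not transduced, on day 0; TTKO cells, in which Tet1, Tet2 and Tet3 were mutated and Dnmt3a and Dnmt3b remained intact, not transduced, on day 0; and TTKO cells transduced with Cre protein, labelled as catalytically dead for Dnmt3a and Dnmt3b, on days 4, 8, 10, 13, 17 and 29. According to the methods, TTKO cells are a picked clone of a line whose catalytic exons of Dnmt3a and Dnmt3b lie between loxP sites, and excision by Cre was not complete. In the capture data WT cells were measured on day 0 only, so the course after Cre was followed without TET only. WT cells after Cre and mock-transduced cells were measured only by amplicon sequencing of sites outside the windows. Effects of transduction, time in culture and culture without feeders therefore cannot be told apart here from that of the deletion. DNA was captured with a methylation probe set, bisulfite converted and sequenced. The 24 samples were 3 replicates of each of 8 conditions, but the table of levels used here holds the replicates joined. No spread between replicates is therefore given for any level below, and tests on single CpGs compare pooled libraries and cover counting error only.

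Hox genes encode homeodomain transcription factors that set position along the body axis. They are arranged in the order in which they act, from paralogue group 1 at the anterior end of a cluster to group 13 at the posterior end. In embryonic stem cells the clusters are silent, rich in CpGs and covered by Polycomb, and most of their CpG islands lack DNA methylation. TET enzymes oxidize methylated cytosine and thereby help to remove it, whereas DNMT3A and DNMT3B add new methylation and DNMT1 copies it at replication.

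The regions below are shown first as the extremes of the clusters, chosen for their levels, so that the contrast between them follows from the choice. Regions were runs of measured CpGs at most 200 bases apart, and 196 regions held at least 5 CpGs. In each cluster the region with the largest difference between TTKO and WT cells is represented by the stretch of at most 150 bases that held most of its CpGs and overlapped no annotated untranslated region, taking the next region where none did. Sequences are from mm9 and measured CpGs are in capitals.
HoxA, upstream of Hoxa13 (chr6:52212729-52212873, plus strand): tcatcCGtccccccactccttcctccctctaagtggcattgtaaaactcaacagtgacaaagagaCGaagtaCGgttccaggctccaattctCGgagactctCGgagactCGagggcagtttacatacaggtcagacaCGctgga
HoxB, Hoxb3 intron (chr11:96188016-96188155, plus strand): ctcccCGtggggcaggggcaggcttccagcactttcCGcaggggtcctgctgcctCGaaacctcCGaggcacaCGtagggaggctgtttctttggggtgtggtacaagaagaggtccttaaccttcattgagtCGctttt
HoxC, 5′ part of Hotair (chr15:102777810-102777948, plus strand): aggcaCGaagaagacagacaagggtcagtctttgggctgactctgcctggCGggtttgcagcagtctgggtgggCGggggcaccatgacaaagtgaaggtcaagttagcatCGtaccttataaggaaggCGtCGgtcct
HoxD, Hoxd3 intron (chr2:74576763-74576903, plus strand): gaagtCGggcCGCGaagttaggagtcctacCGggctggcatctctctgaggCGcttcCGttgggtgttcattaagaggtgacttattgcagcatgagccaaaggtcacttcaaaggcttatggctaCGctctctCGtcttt

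These 4 stretches had at most 10.5% methylation in WT cells and at least 50.1% in TTKO cells. The 7 CpGs upstream of Hoxa13 averaged 2.69% in WT, 59.9% in TTKO on day 0 and 19.9% on day 29. The 6 CpGs in the Hoxb3 intron averaged 2.65%, 50.1% and 25.1%. In the 5′ part of Hotair, a long non-coding RNA of the HoxC cluster, 6 CpGs averaged 3.9%, 57.3% and 19.6%. The 8 CpGs in the Hoxd3 intron averaged 10.5%, 77.3% and 50.2%, the highest of the 4 at each point.

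By contrast, the regions with the highest WT level of each cluster, chosen in the same way, are shown next.
HoxA, Hoxa3 intron near Hoxa4 (chr6:52139133-52139253, plus strand): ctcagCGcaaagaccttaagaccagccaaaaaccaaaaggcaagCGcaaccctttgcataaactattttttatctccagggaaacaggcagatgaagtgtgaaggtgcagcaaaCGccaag
HoxB, pseudogene Gm11539 (chr11:96109914-96110063, plus strand): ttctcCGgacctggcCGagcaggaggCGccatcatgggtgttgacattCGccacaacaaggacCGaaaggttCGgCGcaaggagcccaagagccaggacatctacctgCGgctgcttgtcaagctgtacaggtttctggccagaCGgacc
HoxC, 3′ part of Hotair (chr15:102775764-102775910, plus strand): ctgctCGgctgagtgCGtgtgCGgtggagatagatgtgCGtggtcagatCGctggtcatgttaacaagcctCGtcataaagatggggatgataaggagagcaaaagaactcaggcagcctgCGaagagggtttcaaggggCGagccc
HoxD, Hoxd3 intron near Hoxd4 (chr2:74567226-74567318, plus strand): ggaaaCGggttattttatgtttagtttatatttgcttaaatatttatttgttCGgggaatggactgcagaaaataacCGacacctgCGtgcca

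Here WT cells already carried methylation on many molecules, and TTKO cells differed less. The 3 CpGs near Hoxa4 averaged 50% in WT and 68.8% in TTKO on day 0. In the pseudogene Gm11539, between Hoxb9 and Hoxb13, 9 CpGs averaged 58.1% and 80.8%. The 8 CpGs in the 3′ part of Hotair averaged 60.8% and 74.3%, and the 4 CpGs near Hoxd4 averaged 58.9% and 74.4%. On day 29 these 4 stretches were at 33.6%, 40.1%, 45.9% and 35.1%, below WT in each case.

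The first comparison asked how the clusters differ between cells with and without TET. Methylation of the Hox clusters was about 3-fold higher in TTKO than in WT cells, to a like extent in all 4. In WT cells the mean level over CpGs was 7.19% in HoxA, 7.41% in HoxB, 6.37% in HoxC and 6.39% in HoxD. In TTKO cells on day 0 it was 23.0%, 23.4%, 19.9% and 20.9%, which is 3.2, 3.16, 3.13 and 3.27 times the WT level. Over the whole table the mean was 23.4% in WT and 35.8% in TTKO cells, a ratio of 1.53. Hox CpGs were thus lower than the table in both genotypes, and the ratio between genotypes was larger.

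Most Hox CpGs had very low levels in WT cells. Of the 7025 CpGs, 71.6% were below 5% in WT and 41.6% in TTKO cells, whereas among all CpGs these shares were 47.0% and 38.1%. Only 2 Hox CpGs reached 80% in WT cells. In TTKO cells 218 did, and a further 1101 lay from 50% to 80%, compared with 143 in WT cells. Among all CpGs of the table the share at 80% or more was 2.87% in WT and 15.1% in TTKO cells, against 0.0285% and 3.1% in the Hox windows, and the share from 50% to 80% in TTKO cells was 25.3%, against 15.7%.

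CpG by CpG, 3680 of 7025 (52.4%) were called higher in TTKO than in WT cells and 12 (0.171%) lower, by two-sided Fisher's exact tests with Benjamini-Hochberg adjustment over the whole table at 0.05. Among all CpGs of the table, 44.7% were called higher and 0.907% lower. Counting only differences of 10 percentage points or more, 2962 Hox CpGs (42.2%) were higher and 2 lower, compared with 37.9% and 0.394% of all CpGs. The share called higher was 52.8% in HoxA, 53.4% in HoxB, 50.5% in HoxC and 52.0% in HoxD. The median difference was 5.6 percentage points over Hox CpGs and 4.8 over the table, and the mean difference 15.1 and 12.4. Of the 12 CpGs called lower, 7 lay in HoxD, 4 in HoxB and 1 in HoxA, and the largest difference was 12.2 percentage points.

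**Figure D1:**
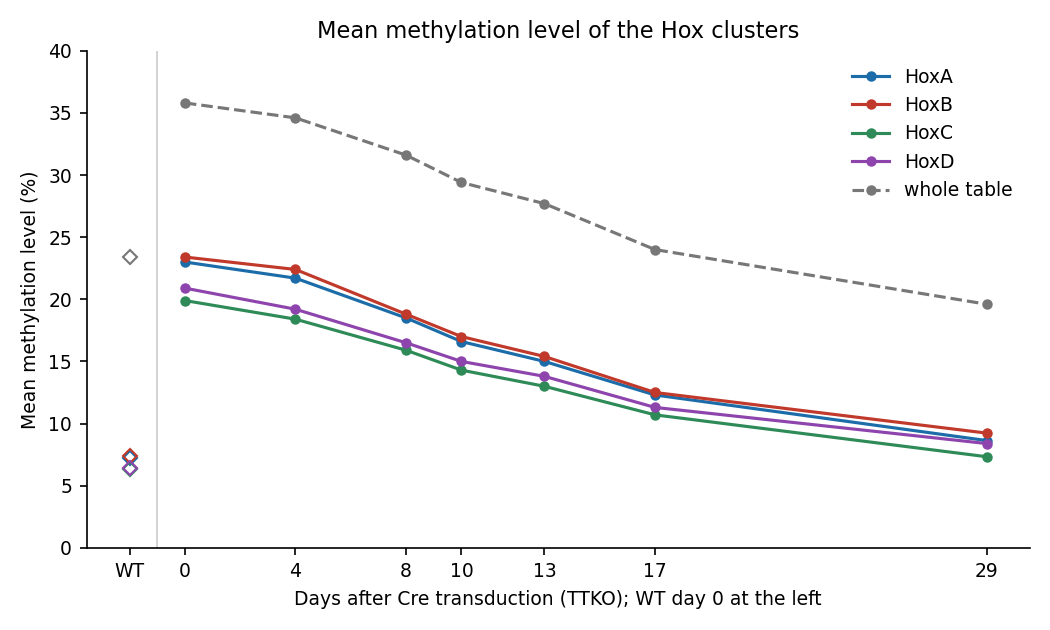
Mean methylation level over the CpGs of each Hox cluster and over the whole table, in percent, against days after Cre transduction of TTKO cells, with WT day 0 as open diamonds at the left. The 4 clusters ran together from 19.9 to 23.4% on day 0 to 7.33 to 9.23% on day 29, near but above their WT levels, while the table fell from 35.8 to 19.6% and passed below its WT level of 23.4%.

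The second comparison followed the loss of methylation after deletion of Dnmt3a and Dnmt3b in TTKO cells. All clusters lost methylation at each step of the course, and by day 29 the means were at about 40% of the day 0 level or below. In HoxA the mean was 23.0% on day 0, 21.7% on day 4, 18.5% on day 8, 16.6% on day 10, 15% on day 13, 12.3% on day 17 and 8.63% on day 29. From day 4 to day 29, HoxB went through 22.4%, 18.8%, 17%, 15.4%, 12.5% and 9.23%. HoxC went through 18.4%, 15.9%, 14.3%, 13%, 10.7% and 7.33%, and HoxD through 19.2%, 16.5%, 15%, 13.8%, 11.3% and 8.39%. The order of the clusters depended on which CpGs entered. On day 0, HoxA was at 22.0% and HoxB at 19.9% within 1000 bases of a Hox transcript, and they were at 29.5% and 24.7% among CpGs with at least 100 reads in every column. The day 29 means were 37.5% of the day 0 level in HoxA, 39.4% in HoxB, 36.7% in HoxC and 40.3% in HoxD. The mean of the table was at 54.6%. With straight lines between time points, the mean passed 50% of its day 0 value on day 19.6 in HoxA, 20.0 in HoxB, 19.5 in HoxC and 20.6 in HoxD.

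On day 29, 3986 Hox CpGs (56.7%) were called lower than on day 0 and 5 higher, compared with 59.3% and 0.171% of the table. With at least 10 percentage points required, 3094 (44.0%) were lower and 0 higher, compared with 51.9% and 0.00133% of all CpGs. The median Hox CpG differed by -6.3 percentage points and the median CpG of the table by -12.2.

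The third comparison set TTKO cells on day 29 beside WT cells. In the Hox windows more CpGs were called above WT than below it, and over the table the reverse held. In WT cells 71.6% of Hox CpGs and 47.0% of the table were below 5%, with little room for a lower call. The part of this in the contrast was not tested. Of the 196 regions, 128 were above WT on day 29. Among the 108 regions with at least 20% in TTKO cells on day 0, 34 were below WT. On day 29, 1196 Hox CpGs (17.0%) were called higher than in WT and 578 (8.23%) lower. Among all CpGs, 10.2% were called higher and 27% lower. With at least 10 percentage points required, 779 Hox CpGs (11.1%) were higher and 348 (4.95%) lower, against 8.07% and 21.9%. The means on day 29 exceeded WT by 1.44 percentage points in HoxA, 1.82 in HoxB, 0.963 in HoxC and 2.01 in HoxD, while that of the table was below WT (-3.84 percentage points). The model used below keeps 8% of the day 0 level for unexcised cells. The part of such cells in these differences was not tested.

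**Figure D2:**
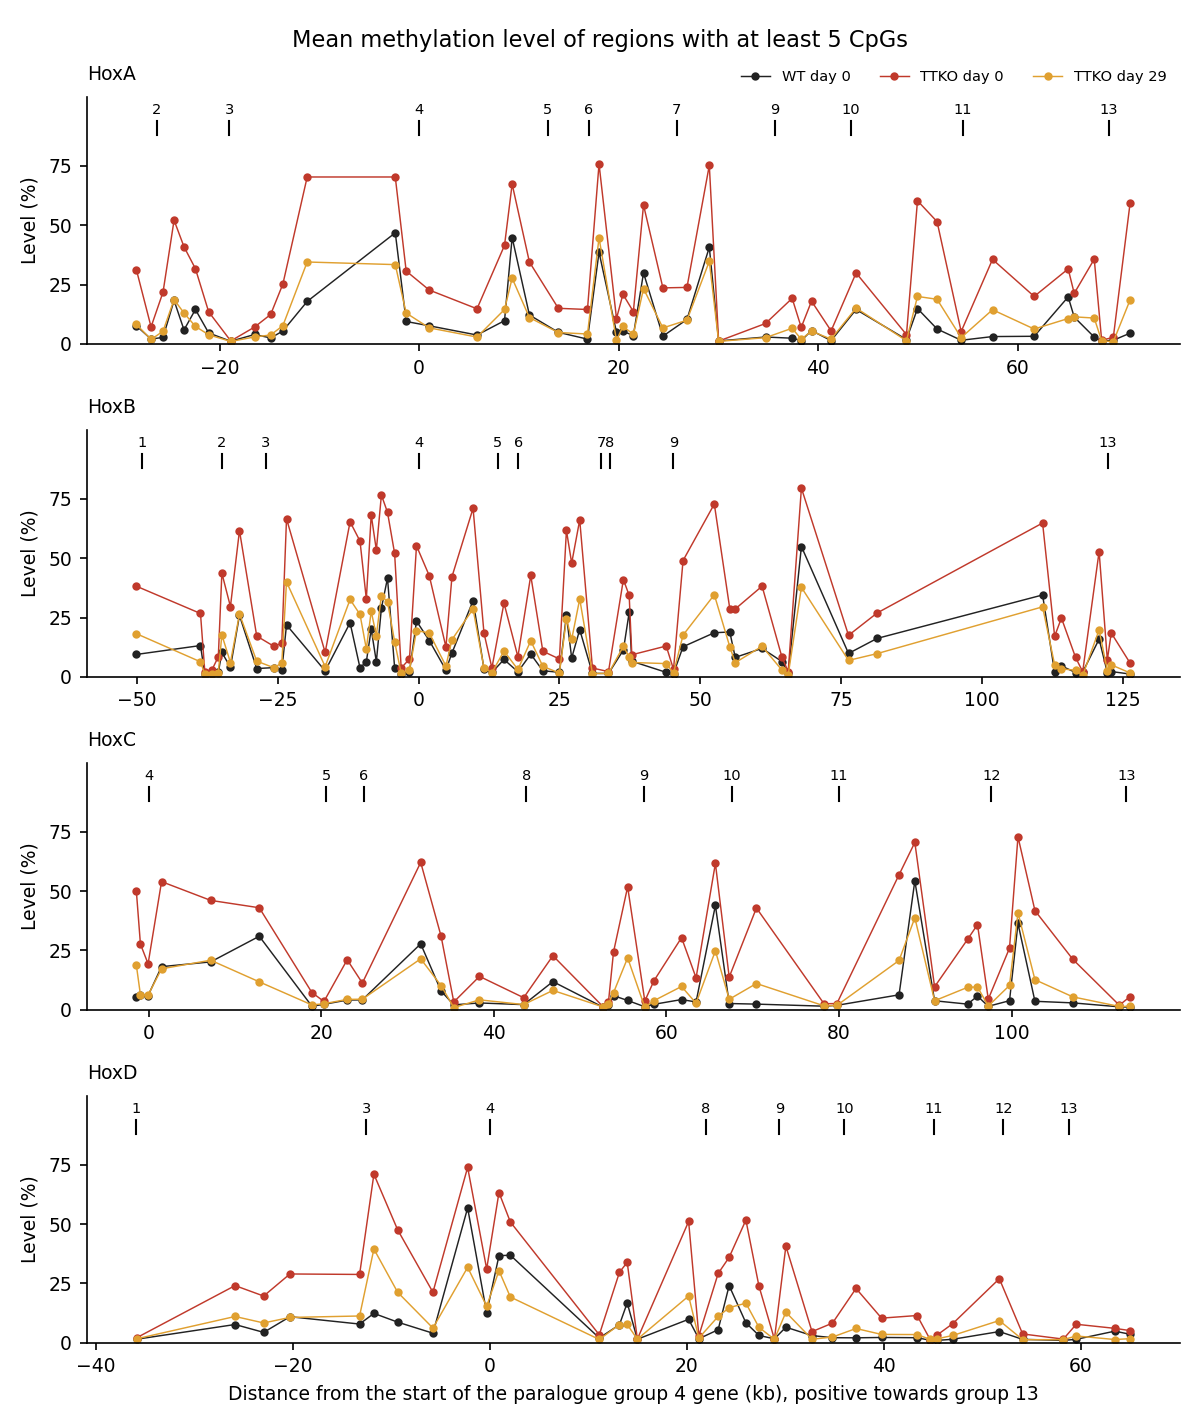
Mean methylation level in percent of regions with at least 5 CpGs, against the distance in kb from the start of the paralogue group 4 gene, positive towards group 13, for WT day 0, TTKO day 0 and TTKO day 29. Ticks with numbers mark the starts of the Hox genes plotted, and in all clusters peaks in TTKO cells alternate with regions that stay near 0.

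Along each cluster methylation in TTKO cells was confined neither to an end nor to a gene, but alternated with regions that remained nearly free of it. Of the 196 regions, 44 averaged at least 50% in TTKO cells on day 0, 3 in WT cells and 0 on day 29. At the other end, 35 averaged below 5% in TTKO cells and 105 in WT cells. In 79 regions the difference between TTKO and WT cells was at least 20 percentage points, and in 2 it was negative. Those 2 were at or below 1.68% in both genotypes. In 4 regions, 1 in HoxA, 2 in HoxB and 1 in HoxC, WT cells were below 5% and TTKO cells above 50%.

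In HoxA a region with a large difference between genotypes, chr6:52212536-52213356, lies upstream of Hoxa13, a gene of the distal limb, at the start of the non-coding RNA Hottip. Its 24 CpGs averaged 4.53% in WT, 59.2% in TTKO on day 0 and 18.5% on day 29, and all 24 were called higher in TTKO cells and lower again on day 29. This region and those named below were chosen for their levels or differences, so counts of called CpGs in them follow from the choice. The highest TTKO levels of HoxA were in introns, 75.8% over 24 CpGs upstream of Hoxa6 (chr6:52159209-52160245) and 75.2% over 21 CpGs upstream of Hoxa7 (chr6:52170534-52171023). These were also methylated in WT cells, at 38.6% and 40.7%, and kept 59.0% and 46.3% of the day 0 level.

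In HoxB the largest difference was between Hoxb9 and Hoxb13, at chr11:96124814-96126172, in the predicted gene Gm53 and just before the Mir196a-1 hairpin. Its 43 CpGs averaged 18.6% in WT, 72.8% in TTKO on day 0 and 34.6% on day 29, and all 43 were called higher in TTKO cells. A region of 19 CpGs in an intron of Hoxb3, chr11:96188021-96188747, averaged 3.83%, 57.2% and 26.3%. This intron region had already dropped to 45.1% on day 4. The pseudogene Gm11539 (chr11:96109919-96110145, 13 CpGs) had the highest mean of all, 79.5% in TTKO cells, beside 54.9% in WT and 37.7% on day 29. The 13 CpGs at the 5′ end of the longest Hoxb3 transcript (chr11:96184427-96184743) averaged 28.9%, 76.6% and 34.2%. The 9 CpGs at the start of the antisense RNA Hoxb5os (chr11:96168255-96168370) averaged 32.1%, 71.0% and 28.6%, so on day 29 they were below WT.

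In HoxC both measured parts of Hotair were methylated in TTKO cells, but they differed in WT cells. The 9 CpGs at chr15:102777694-102778068 averaged 6.33% in WT and 56.9% in TTKO cells, and the 22 CpGs at chr15:102775689-102776416 averaged 54.3% and 70.5%. On day 29 they were at 20.8% and 38.8%. An intron region of Hoxc9 (chr15:102809161-102809487, 12 CpGs) averaged 3.95% in WT, 51.8% in TTKO on day 0, 41.2% on day 4 and 21.9% on day 29. Upstream of Hoxc12, 7 CpGs at chr15:102764022-102764184 averaged 36.4%, 72.9% and 40.9%, and so remained slightly above WT on day 29. The largest falls after Cre were in introns of Hoxc6 (chr15:102832647-102833951, 20 CpGs, from 62.1% to 21.5%) and Hoxc10 (chr15:102798985-102799329, 7 CpGs, from 61.7% to 24.9%), both to below their WT levels of 27.8% and 44.0%.

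In HoxD 26 CpGs just upstream of the Hoxd3 start used here, in an intron of a longer Hoxd3 transcript (chr2:74576537-74577289), averaged 12.4% in WT, 71.0% in TTKO on day 0 and 39.5% on day 29. All 26 were called higher in TTKO cells, and 25 were called lower on day 29. Nearer to Hoxd4, 8 CpGs at chr2:74567231-74567554 averaged 56.8%, 73.9% and 31.8%. Only 4 of these 8 were called higher in TTKO cells. Downstream of Hoxd9, 10 CpGs at chr2:74539065-74539204 averaged 8.42%, 51.7% and 16.7%.

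**Figure D3:**
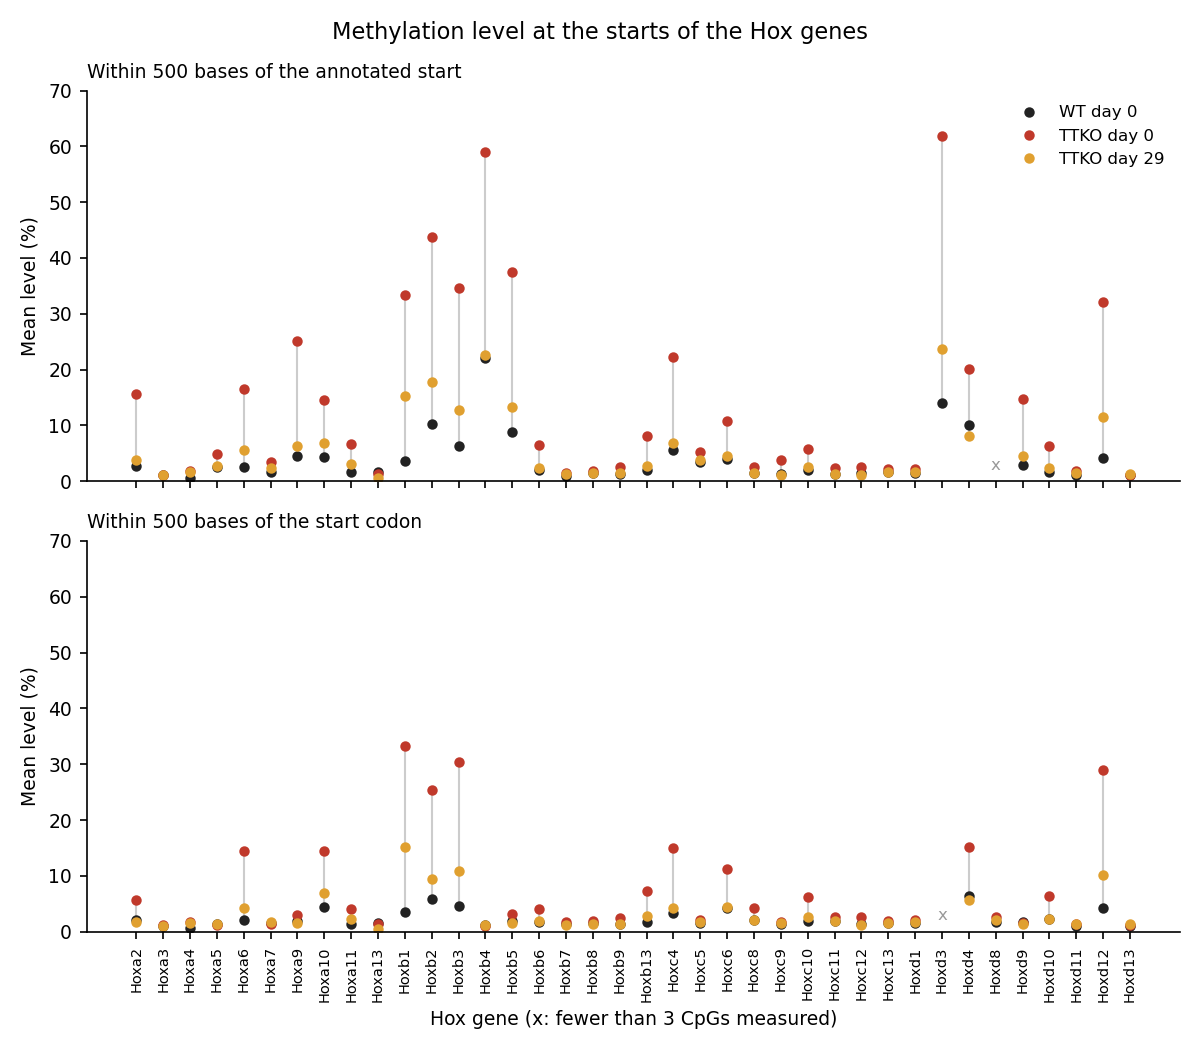
Mean methylation level in percent within 500 bases of the annotated start (top) and of the start codon (bottom) of 38 of the 39 Hox genes, for WT day 0, TTKO day 0 and TTKO day 29. Start regions ranged from 1.12 to 61.8% in TTKO cells and those around start codons from 1.00 to 33.3%.

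At the starts of the Hox genes themselves, methylation was low in WT cells and was gained at some genes only. Start regions took 500 bases to each side of the start of the shortest annotated coding transcript with a homeobox, and 38 of 39 genes had at least 3 CpGs there. Hoxd8 had fewer. The mean over genes was 3.71% in WT cells, 13.6% in TTKO cells on day 0 and 5.4% on day 29. In WT cells 31 of 38 start regions were below 5% and 4 reached 10%, whereas in TTKO cells 17 were below 5% and 15 reached 10%.

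The highest start regions in TTKO cells were those of Hoxd3 and of the HoxB genes from Hoxb1 to Hoxb5. Hoxd3, which acts in the upper neck, averaged 14.1% in WT and 61.8% in TTKO cells over 7 CpGs, and 23.6% on day 29. Hoxb4, known from blood stem cells, averaged 22.0%, 58.9% and 22.6%. Hoxb2 and Hoxb1, genes of the hindbrain, averaged 43.7% and 33.4% in TTKO cells, beside 10.3% and 3.62% in WT. Hoxb5 averaged 37.5% and Hoxb3 34.6% in TTKO cells. Hoxb1 was at 15.3% on day 29, and 33 of its 36 CpGs were called higher in TTKO than in WT cells.

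At least 10% in TTKO cells was reached at 5 of 10 measured starts in HoxB, 4 of 8 in HoxD, 4 of 11 in HoxA and 2 of 9 in HoxC. In HoxA, Hoxa9 averaged 25.1%, Hoxa6 16.5%, Hoxa2 15.6% and Hoxa10 14.5% in TTKO cells, from at most 4.49% in WT. In HoxC, Hoxc4 averaged 22.2% and Hoxc6 10.7%, beside 5.64% and 3.99% in WT. In HoxD, besides Hoxd3, Hoxd12 averaged 32.1%, Hoxd4 20.1% and Hoxd9 14.8%. The lowest start regions of each cluster, Hoxa3 at 1.12%, Hoxb7 at 1.53%, Hoxc13 at 2.19% and Hoxd13 at 1.13% in TTKO cells, had 0 CpGs called higher than in WT.

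Many Hox genes have several annotated starts, and the choice mattered. Around start codons the mean over 38 genes was 2.17% in WT, 7.04% in TTKO on day 0 and 3.11% on day 29, and 9 genes reached 10% in TTKO cells. Hoxb4 averaged 1.00% around its start codon in TTKO cells and Hoxb5 3.25%, so the methylation at both lay upstream of the coding sequence. Hoxb1, Hoxb3 and Hoxd12 remained methylated by this measure, at 33.3%, 30.4% and 29.0%. Hoxd3 had no measured CpG around the start codon used, and the start of its longest transcript averaged 1.53%.

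Within genes, the exon that encodes the homeodomain was more methylated than the first coding exon. In 30 genes both had at least 3 CpGs and were distinct. In TTKO cells on day 0 the first coding exon averaged 7.18% and the homeodomain exon 23.8%, with the homeodomain exon higher in 23 of 30 genes. In WT cells the means were 2.01% and 4.55% (higher in 24 of 30), and on day 29 2.88% and 8.15% (higher in 20 of 30). Homeodomain exons also had fewer CpGs within 100 bases of each CpG, with a median of 12.5 against 16.5, and fewer in 20 of the 30 genes. The part of CpG density in this difference was not tested. In Hoxa5 the first coding exon averaged 0.932% in TTKO cells and the homeodomain exon 53.8%. In Hoxd12 the order was the reverse, 23.8% and 12.7%, the latter over 3 CpGs.

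Non-coding genes of the windows ranged as widely. The start of Hottip averaged 58.2% in TTKO cells and 3.9% in WT. The start of Hoxa11os, antisense to the limb gene Hoxa11, averaged 44.5% beside 3.51%. Others were low in TTKO cells too, with 2.1% at the start of Hoxb3os, 2.15% at Haglr and 7.12% at Hoxaas3. Among the microRNAs, 500 bases to each side of Mir10a averaged 22.9% in WT and 56.3% in TTKO cells over 19 CpGs, and of Mir10b, at the paralogous place in HoxD, 39.2% and 66.1% over 12 CpGs. On day 29 both were slightly below WT, at 20.7% and 36.4%. Around Mir196a-1 (2 CpGs) and Mir196a-2 (3 CpGs) the levels were 50.4% and 18.3% in WT, 89.7% and 59.9% in TTKO cells and 57.1% and 25.9% on day 29, which is above WT. Around Mir196b and Mir615 the level in TTKO cells was 6.98% and 3.17%. The non-coding genes were listed as annotated in the windows and were not chosen by a rule. Some share CpGs with Hox start regions, as Mir10a does with that of Hoxb4 and Haglr with that of Hoxd1.

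Position along the cluster was described by the paralogue group of the nearest Hox start. In HoxC and HoxD the anterior part was the most methylated in TTKO cells, in HoxB both ends, and in HoxA the anterior and central parts. In TTKO cells on day 0, CpGs near groups 1 to 4 averaged 26.6% in HoxA, 26.3% in HoxB, 40.4% in HoxC and 31.8% in HoxD. Near groups 5 to 8 the means were 26.3%, 16.2%, 17.9% and 17.1%, and near groups 9 to 13 they were 17.9%, 26.4%, 16.7% and 12.3%. WT cells had the same order of parts except in HoxA, where the central part was highest. HoxC has only Hoxc4 in its anterior part, with 173 CpGs. The posterior part of HoxB takes in the long gap between Hoxb9 and Hoxb13, and the CpGs nearest to Hoxb9 (469, with a mean of 28.6%) were above those nearest to Hoxb13 (244, 22.2%).

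Density was also compared, as the number of CpGs within 100 bases of a CpG, itself included. In HoxD the anterior part was higher within density classes too. Among CpGs with a density of 1 to 5, the anterior HoxD mean was 60.8% and the posterior 19.8% in TTKO cells. Among those with 6 to 10 it was 48.7% and 18.4%. In HoxA the anterior, central and posterior parts averaged 45.6%, 57% and 43.5% in the first class and 23.9%, 29.8% and 24.1% in the second, so the central part was highest in both. At a density of 11 to 20 they averaged 11.9%, 10.9% and 9.99%, with the anterior part highest. The posterior part had a higher median density than the anterior (12 against 8). In HoxB the 3 parts averaged 46.7%, 39.6% and 43.6% in the first class and 33.6%, 18.5% and 31.2% in the second. In HoxC they averaged 58.3%, 34.4% and 42.6%, then 38.3%, 20.7% and 27.0%, with 27 and 60 CpGs in the anterior part.

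Paralogue group 4 had the highest mean of the 13 groups in both genotypes, 12.7% in WT and 35.3% in TTKO cells. Its members averaged 29.2% around Hoxa4, 33.2% around Hoxb4, 40.4% around Hoxc4 and 38.2% around Hoxd4 in TTKO cells. The CpGs around Hoxd4 had the highest WT mean of all 39 genes, 19.5%. Hoxb1 stood out for the share of its CpGs called higher in TTKO than in WT cells, 96.8% of 93. At the low end, the CpGs around Hoxd13 averaged 5.67% and those around Hoxd11 6.31% in TTKO cells. Paralogues did not match in each group, since those around Hoxa13 averaged 24.8% and around Hoxb13 22.2%.

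Methylation also differed with distance to starts and with annotation. Within 500 bases of a Hox start the mean in TTKO cells was 10.0%, from 500 to 1000 bases 17.5%, from 1000 to 2000 bases 22.4%, from 2000 to 5000 bases 26.4%, and beyond 28.9%. Beyond 5000 bases the mean was highest in HoxB and HoxC, at 32.8% and 33.8%, but in HoxA and HoxD it was lower there (24.3% and 20.9%) than from 2000 to 5000 bases (31.4% and 28.2%). Introns averaged 31.1%, sequence outside Hox genes 28.4%, untranslated parts of exons 21.3%, coding exons 12.5% and start regions 10.0%. In WT cells the same classes were at 10.3%, 9.19%, 7.03%, 2.76% and 2.88%.

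**Figure D4:**
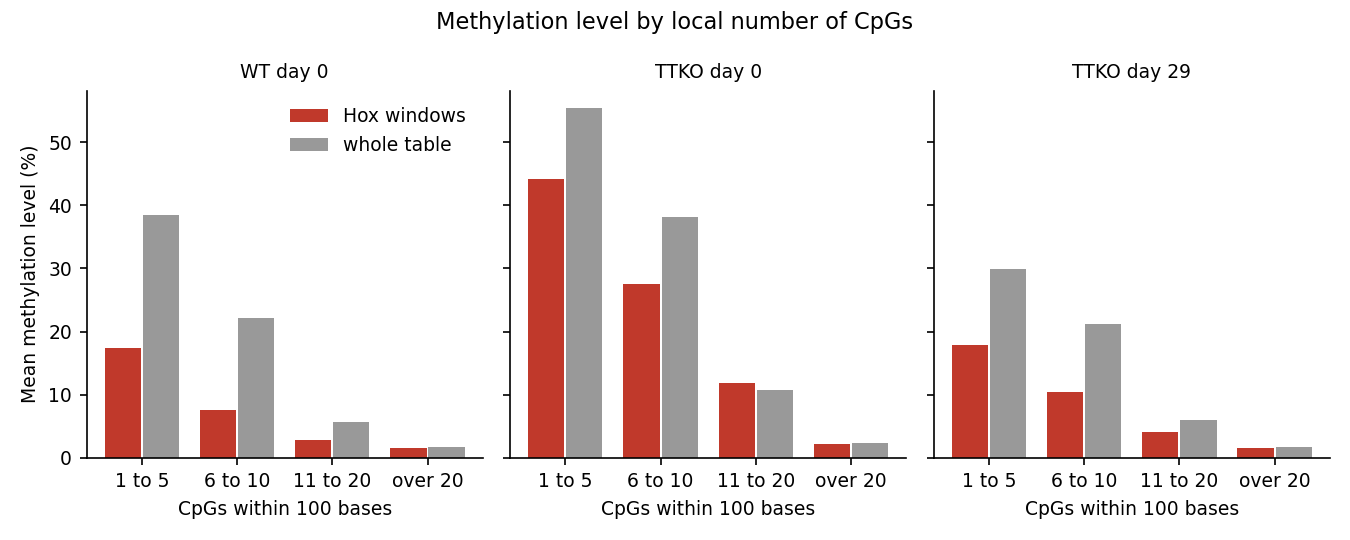
Bars give the mean methylation level in percent of CpGs with 1 to 5, 6 to 10, 11 to 20 or over 20 CpGs within 100 bases, itself included, for the Hox windows and the whole table, in WT day 0, TTKO day 0 and TTKO day 29. In the class of 11 to 20 the Hox mean was 2.78% against 5.62% in WT cells but 11.8% against 10.8% in TTKO cells.

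Since Hox CpGs are dense, they were compared with the table within classes of density. At a density of 1 to 5, the Hox mean was 17.4% in WT and 44.1% in TTKO cells, and over all CpGs of the table it was 38.5% and 55.4%. For 6 to 10 the values were 7.54% and 27.6% in Hox windows against 22.1% and 38.2%. For 11 to 20, Hox CpGs were below the table in WT cells, 2.78% against 5.62%, and above it in TTKO cells, 11.8% against 10.8%. In this class 39.4% of Hox CpGs were called higher in TTKO cells and 20.8% of the table. Above 20 CpGs both were nearly free of methylation, at 2.15% and 2.35% in TTKO cells.

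**Figure D5:**
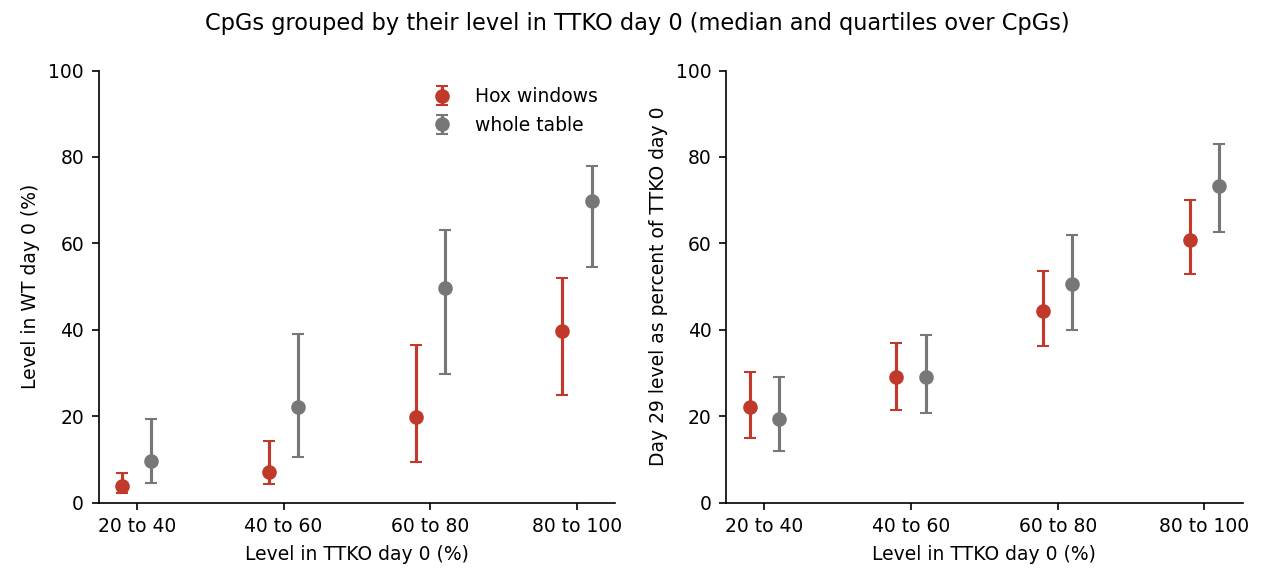
CpGs grouped by their level in TTKO day 0, with the median and quartiles over CpGs of the WT day 0 level (left, percent) and of the day 29 level as percent of TTKO day 0 (right), for the Hox windows and the whole table. From 60 to 80% the WT median was 19.8% for Hox CpGs and 49.8% for the table, while the retained shares were 44.4% and 50.6%.

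Hox CpGs were next set beside CpGs of the table in the same class of level without TET. From 5% upward their WT medians were lower in each class, with 2.4% against 3.7% from 5 to 20%. Below 5% both medians were 1.2%. Where TTKO cells had 20 to 40%, the WT median was 3.9% in Hox windows and 9.6% in the table. From 40 to 60% it was 7.1% and 22.1%, from 60 to 80% 19.8% and 49.8%, and from 80 to 100% 39.8% and 69.7%. As log2 odds ratios of TTKO over WT, the medians in the 4 classes from 20% upward were 3.23, 3.55, 3.17 and 2.98 for Hox CpGs. For the table they were 1.94, 1.85, 1.36 and 1.34. The clusters lay close together in this measure, at 3.16 in HoxA, 3.2 in HoxB, 3.07 in HoxC and 3.25 in HoxD for 60 to 80%. From 20% upward the median density by class was 9, 7, 6 and 6 in Hox windows and 5, 4, 4 and 4 in the table. The part of density in these differences was not tested. No test was made between Hox CpGs and the table, since neighbouring CpGs are not independent.

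The share of methylation kept on day 29 differed less. Over the 2613 Hox CpGs with at least 20% in TTKO cells on day 0, a median of 32.6% was kept, with quartiles of 21.6% and 46.3%, and the median for the table was 50.1%. By class of day 0 level the medians were 22.2% against 19.4% for 20 to 40%, 29.2% in both for 40 to 60%, 44.4% against 50.6% for 60 to 80%, and 60.8% against 73.2% for 80 to 100%. In the upper classes the Hox medians were thus lower than those of the table, but Hox CpGs also started lower there, with day 0 medians of 69.8% against 72.5% and 82.8% against 84.8%. The part of the starting level in these differences was not tested. HoxD kept most in each class up to 80%, with 49.3% from 60 to 80% against 42.7% in HoxA.

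Demethylation rates were estimated for each CpG of TTKO cells by a grid search with the study's model, in which the methylation rate decays after Cre and the demethylation rate stays constant. Rates in both directions were determined within 2 log2 units for 2624 Hox CpGs (37.4%) and 44.8% of the table. The median log2 demethylation rate (per day) was -4.23 in Hox windows and -4.78 in the table, which correspond to 13.0 and 19.0 days to lose 50%. By cluster it was -4.23 in HoxA and HoxD and -4.09 in HoxB and HoxC, a difference of a single grid step of 0.14. By class of day 0 level, the medians were the same in both sets for 20 to 40% (-3.68) and 40 to 60% (-4.09). For 60 to 80% they were -4.78 and -5.05, and for 80 to 100% -5.46 and -5.88, again with lower day 0 medians for the Hox CpGs. The median log2 methylation rates for 80 to 100% were -2.99 and -3.4.

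Single CpGs show the span inside the clusters, with 95% Wilson intervals for counting error. The largest called rises in each cluster were of similar size. At chr6:52130523-52130524, in an intron of Hoxa3, the level was 7.3% in WT (5.22 to 10, 454 reads) and 85.7% in TTKO cells (82.1 to 88.6, 447 reads), and 53.4% on day 29. At chr11:96226848-96226849, in the start region of Hoxb1, it was 3.0% in WT (1.58 to 5.58, 301 reads) and 81.8% in TTKO cells (77.2 to 85.6, 329 reads), and still 60% on day 29. Upstream of Hoxc12, at chr15:102762025-102762026, it was 4.9% and 82.3%, and it went down further, to 30.8%. In the Hoxd3 intron, at chr2:74577037-74577038, it was 10.8% and 90.1%, with 63.0% on day 29.

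The largest called differences in the other direction were small. They were 3.5% in WT against 0% of 183 reads in TTKO cells near Hoxa7 (chr6:52167671-52167672, adjusted p = 0.0226 by Fisher's exact test), where 0 reads allow up to 2.06%. In HoxB they were 37.0% against 28.0% in a gap between Hoxb9 and Hoxb13 (chr11:96113890-96113891, adjusted p = 0.000813 by the same exact test), and in HoxD 21.9% against 9.7% near Hoxd8 (chr2:74540260-74540261, adjusted p = 0.00018 by the same exact test). HoxC had 0 such CpGs.

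CpGs also differed widely in how fast they lost methylation. The highest demethylation rate among the well determined CpGs was between Hoxb9 and Hoxb13 (chr11:96122980-96122981, log2 rate -1.89), where the level went from 17.4% to 8.9% by day 4 and 1.0% on day 29. In HoxC the fastest was upstream of Hoxc10 (chr15:102794335-102794336, -2.16), from 28.5% to 16.1% by day 4 and 1.2% on day 29, beside 1.3% in WT. HoxA and HoxD had their fastest CpGs at -2.3 each, 3487 bases downstream of the Hoxa13 start and in an untranslated part of Hoxd9. The 95% credible ranges spanned 1.1 log2 units in HoxB, 0.83 in HoxC and 0.69 in HoxA and HoxD, so the order of these rates is not settled.

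The slowest CpG of the windows was near Hoxd8 (chr2:74540683-74540684, -7.8). It had 81.1% in WT, 89.6% in TTKO on day 0 and 80.6% on day 29 (77.4 to 83.5, 655 reads). It lies in the same region as the CpG near Hoxd8 that was lower in TTKO cells. In Hotair (chr15:102775785-102775786, -7.11) the level was 76.7%, 85.6% and 72.9%. In an untranslated part of Hoxb1 (chr11:96228936-96228937, -7.11) it was 59.8%, 88.0% and 75.3%, so that this CpG stayed above WT throughout. The slowest in HoxA lay in the same Hoxa3 intron region as the CpG with the largest rise (chr6:52130731-52130732, -6.56), with 45.6%, 83.8% and 65.1%. The credible ranges of these slow rates spanned 0.83 to 1.1 log2 units, so their order is not settled either.

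Start regions of other genes were measured in the same way for comparison, from lists of Hox partners, other developmental regulators, stem cell genes and constitutively expressed genes. At least 10% in TTKO cells was reached by 15 of 38 Hox genes, 4 of 16 cofactors and regulators of Hox genes, 11 of 45 other developmental regulators, 1 of 8 stem cell genes and 0 of 15 constitutive genes. The Hox count was 9 of 38 around start codons and 10 of 33 around the ends of the gene records, shares nearer to those of the cofactors and other regulators. Meis1 and Meis2, homeodomain partners of Hox proteins, averaged 63.3% (over 4 CpGs) and 18.2% in WT and 74.1% and 63.2% in TTKO cells, and 28.7% and 35.2% on day 29. Lhx9, a developmental regulator, averaged 8.74% in WT and 73.4% in TTKO cells and 55.7% on day 29. Its 2 TTKO levels were above those of all Hox start regions as defined above. Around the end of its gene record, however, Hoxb3 averaged 76.5% in TTKO cells on day 0. The stem cell genes Pou5f1, Nanog and Sox2 were among the 7 of their list whose start regions were below 5% in all 3 of these conditions. The 1 of 8 on that list that reached 10% was Dazl, a germ cell gene, at 23.5%, 33.6% and 19.5%. Levels of methylation do not measure expression, so the identity of the cells was not checked further.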

How the data were processed

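Genomic DNA was captured with SureSelect probes, bisulfite converted and sequenced as 51 bp paired-end reads. The authors aligned reads to mm9 with QuasR, joined 3 replicates per condition and deposited, per CpG, the methylation level in percent and the coverage as a read count of at least 50 in each of 8 columns. Their own rates, confidence classes and TET activities in the same table were not used. Methylated reads were recovered as the percent times the coverage, rounded. Median coverage of Hox CpGs was 145 to 267 reads per condition (233 in TTKO day 0, 235 in WT), and sums of coverage over all CpGs ran from 421283985 to 740590811. All positions of the table were CpGs in the mm9 sequence used. The amplicon data had 0 CpGs in the windows.

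Fisher's exact tests and Benjamini-Hochberg adjustment ran over all 2177608 CpGs. Rates used 6400 combinations of rates, a conversion error of 0.0025, an unexcised share of 8% that keeps its starting level, and a DNMT3 activity that decays at a rate of 0.5 per day. Both were tested on simulated data (Python 3.11.15, numpy 2.4.6, scipy 1.17.1, numba 0.67.0). Gene models were GENCODE M1, and names of non-coding RNAs came from RefSeq. Named regions were, per cluster and with at least 5 CpGs, the 2 with the largest TTKO minus WT difference, the 2 highest in TTKO day 0 and the 2 with the largest fall by day 29. Named start regions were the 2 highest and the lowest per cluster and any that reached 10%, and named CpGs the extremes of called differences and of rates. Exons, microRNAs and paralogue groups were named after their values were seen. Members and lists were chosen with earlier results of these data known. Results for 1 gene that the naming rule would include are not reported here.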

Additional observations from a re-analysis of the deposited data

How the results depend on the processing

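No paired analysis was possible because the replicates were joined in the columns used, and for the same reason no replicate could be left out. Counts of Hox CpGs higher in TTKO than WT and lower on day 29 than day 0 stayed within 1.5 times under all alternatives. With an over-dispersion of 0.0055, a value taken from the study's methods for amplicons and not estimated from these replicates (counts were divided by the resulting variance inflation), CpGs lower in TTKO than WT numbered 4 rather than 12 (0.463% rather than 0.907% of all CpGs), and CpGs higher on day 29 than day 0 numbered 1 rather than 5 (0.0178% rather than 0.171%). With at least 10 percentage points required, these were 2 and 0, and day 29 against WT gave 779 higher and 348 lower rather than 1196 and 578. Means over the windows (6.92% in WT, 22.0% in TTKO, 8.52% on day 29) were 7.68%, 23.8% and 9.25% with equal weight per read, 9.55%, 28.0% and 10.8% with equal weight per region, 6.32%, 20.5% and 7.9% within 1000 bases of a Hox transcript, and 7.52%, 24.1% and 9.33% with at least 100 reads in every column. The retained share of 32.6% was 43.4% among CpGs with at least 50% on day 0. The median log2 demethylation rate of -4.23 was -4.36 with a beta-binomial likelihood and with no day 0 level mixed in. Mean start region levels (3.71%, 13.6% and 5.4%) were 4.27%, 14.2% and 5.83% with 1000 bases to each side. With other starts, chosen after seeing the data, they were 3.95% and 13.1% in WT and TTKO around the end of the gene record, and 2.17%, 7.04% and 3.11% around the start codon. The causes of these shifts were not tested.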
